A study of Mus musculus with 10 samples.

Results

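The interferon-induced genes described here are 40 genes whose transcription is raised by interferons, sorted by role into 10 sensors of foreign nucleic acid, 4 transcription factors and 26 effectors. All 40 are among the 26312 genes of the deposited table. Those with a mean of at least 10 normalized read counts over all libraries were kept, which left 37 (10 sensors, 4 transcription factors and 23 effectors) among the 15180 genes above that level. The other 3 were the effectors Mx1 (mean 1.7), Ifit2 (4.9) and Ifi44 (9.3). Ifit3b (16.9) and Oas2 (20.4) were the kept genes nearest to that limit.

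The RNA came from luminal cells of the mouse mammary gland, and the question in the series title is how ERK1/2 and the kinase RSK2 act on estrogen homeostasis. Wild-type mice, RSK2(+/+) or WT, and mice labelled RSK2(-/-), or KO, were all C57BL/6J animals aged 12 wk whose estrous cycle was followed. Each genotype has 3 libraries from estrus and 2 from diestrus, the stage of high progesterone. Cells were gated by flow cytometry as high in EpCAM, low in CD49f, positive for Sca-1 and negative for CD49b. The labels do not say how RSK2 was removed, or whether a library stands for 1 mouse or a pool, so p-values measure the spread between libraries, which may be technical.

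Library totals ran from 14108057 to 15307238 normalized counts. The 10 markers of hormone-sensing luminal cells, the cell type this gate is known to hold, summed to 320529 to 432789 counts per library. Luminal progenitor markers summed to 977 to 1965 and basal markers to 324 to 1171. The 10 include Krt8, Krt18 and Epcam, which are not particular to hormone-sensing cells among luminal cells. The sums therefore do not give the share of each cell type. Rps6ka3, the gene of RSK2, had 156 to 165 counts in the KO libraries and 128 to 165 in the WT libraries. It was therefore not lower in KO, and since the count covers the whole gene it does not check the genotype labels. The 3 KO estrus libraries stood apart from the other 7 on the first principal component of all tested genes, with scores of 37.4 to 55.8 against -33.1 to -5.5.

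Interferons are secreted proteins that cells make when they sense viral RNA or DNA. Type I and type III interferons bind receptors that activate JAK kinases, and these phosphorylate STAT proteins such as STAT2, which join IRF9 and bind a DNA element called the interferon-stimulated response element (ISRE). Interferon gamma acts on another element, the gamma-activated site (GAS). Many of the induced genes keep a low tonic level in uninfected epithelium, and several of them, such as the sensors and Irf7, feed back to raise interferon output.

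The promoters of 6 genes are shown because they are the members that changed between stages in KO cells, apart from Mx2, and because they differ in whether and where they hold an ISRE. Each runs 5′ to 3′ on the strand of the gene from 250 bases before to 50 bases after its start, from RefSeq on GRCm38.p6, with matches to GAAANNGAAA on either strand in capitals and overlapping matches merged. The windows are chr5:120907476-120907775 for Oas1a, chr5:120887564-120887863 for Oas1g, chr4:156200769-156201068 for Isg15, chr8:71537423-71537722 for Bst2, chr4:40239776-40240075 for Ddx58 and chr7:141266375-141266674 for Irf7, all on the minus strand.
Oas1a: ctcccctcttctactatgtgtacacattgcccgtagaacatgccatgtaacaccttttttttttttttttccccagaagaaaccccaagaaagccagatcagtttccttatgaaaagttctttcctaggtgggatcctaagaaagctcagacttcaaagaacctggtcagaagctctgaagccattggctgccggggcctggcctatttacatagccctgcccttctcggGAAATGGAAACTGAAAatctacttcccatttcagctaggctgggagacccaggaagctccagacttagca
Oas1g: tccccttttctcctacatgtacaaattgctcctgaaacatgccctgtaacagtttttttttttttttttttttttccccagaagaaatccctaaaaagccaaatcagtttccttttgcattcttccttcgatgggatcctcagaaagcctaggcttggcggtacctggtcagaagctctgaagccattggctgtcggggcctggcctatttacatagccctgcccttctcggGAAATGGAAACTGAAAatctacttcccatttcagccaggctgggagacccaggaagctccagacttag
Isg15: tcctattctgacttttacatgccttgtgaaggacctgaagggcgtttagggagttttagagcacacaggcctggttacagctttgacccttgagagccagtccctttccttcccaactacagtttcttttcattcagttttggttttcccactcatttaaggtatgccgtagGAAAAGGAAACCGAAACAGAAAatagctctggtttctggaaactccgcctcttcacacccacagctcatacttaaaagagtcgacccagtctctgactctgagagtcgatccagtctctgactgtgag
Bst2: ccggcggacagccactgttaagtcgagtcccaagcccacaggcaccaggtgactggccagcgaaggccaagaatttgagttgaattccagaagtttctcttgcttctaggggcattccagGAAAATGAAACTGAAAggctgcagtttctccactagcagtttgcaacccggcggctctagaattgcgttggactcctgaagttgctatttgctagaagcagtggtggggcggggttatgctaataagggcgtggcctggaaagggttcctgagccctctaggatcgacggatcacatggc
Ddx58: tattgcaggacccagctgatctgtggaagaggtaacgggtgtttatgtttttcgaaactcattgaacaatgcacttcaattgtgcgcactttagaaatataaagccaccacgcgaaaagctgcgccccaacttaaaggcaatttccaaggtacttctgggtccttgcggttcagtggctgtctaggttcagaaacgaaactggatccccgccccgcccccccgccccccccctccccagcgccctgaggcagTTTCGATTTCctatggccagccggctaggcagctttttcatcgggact
Irf7: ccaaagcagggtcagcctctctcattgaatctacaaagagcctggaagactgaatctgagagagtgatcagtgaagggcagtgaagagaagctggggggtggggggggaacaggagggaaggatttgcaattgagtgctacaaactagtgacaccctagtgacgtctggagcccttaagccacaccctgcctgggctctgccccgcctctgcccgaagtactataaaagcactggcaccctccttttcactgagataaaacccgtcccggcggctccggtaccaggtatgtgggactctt

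The Oas1a and Oas1g windows carry the same capital run just before the start, with matches beginning at -20 and -14 in Oas1a and at -18 and -12 in Oas1g. Aligned end to end, these 2 windows were identical at 261 of 306 columns (85.3%). Isg15 holds 3 overlapping matches, which begin at -78, -72 and -66, and Bst2 holds matches at -130 and -124. The match of Ddx58 lies after the start, at position 3, and reads on the other strand. The Irf7 window holds no such run of letters, which says only that these letters are not in that window.

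Promoter windows were found for 30 of the 40 genes, which have 34 windows, and 15 of these genes (50%) held an ISRE in any of their windows. Among all 32851 windows in the table, 1131 held one (3.44%). This share is per window and not per gene. The 15 were B2m, Bst2, Ddx58, Gbp2, Gbp3, Ifih1, Ifit1, Ifit3, Ifit3b, Isg15, Oas1a, Oas1g, Oas3, Rsad2 and Stat2. A GAS, spelled TTCNNNGAA, was found in 6 of the 30 genes (20.0%), against 2726 of all windows (8.3%), again counted per window. These 6 were Bst2, Ifi35, Ifit2, Irf1, Oas1a and Samhd1, so that Bst2 and Oas1a held both elements. In the plot of ISRE matches by distance, most lie upstream of the start, and only those of Ddx58 and Ifih1 begin after it. A match is a description of the sequence and does not show that a factor binds there.

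**Figure D1:**
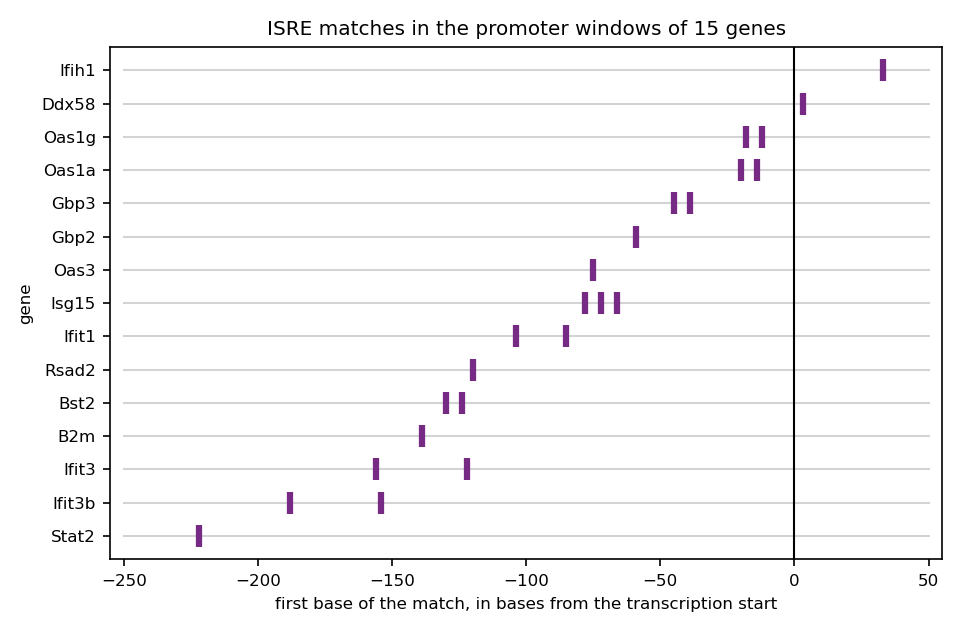
Position of each match to GAAANNGAAA in the promoter windows of the 15 genes that hold one. The x axis gives the first base of the match in bases from the transcription start, each grey line is a window, and each purple mark is a match. Matches run from -222 in Stat2 to 33 in Ifih1.

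Levels of the 40 genes differed widely per kilobase of exon. B2m, the light chain of MHC class I, was the highest with a mean of 14317 normalized counts per kilobase, followed by the transcription factor Irf1 (1101), the membrane tether Bst2 (965) and the mitochondrial protein gene Ifi27 (811). Isg15, a ubiquitin-like protein, stood at 338 and Irf7 at 70.3. The lowest kept genes were Oas3 (5.73) and Oas2 (4.58), and below them were Ifi44 (1.52), Ifit2 (1.25) and Mx1 (0.449).

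Of the ligands, 9 interferon genes were sought. Ifnb1 had 0 to 6 normalized counts and Ifnk 0 to 3 in any library, and Ifna1, Ifna2, Ifna4, Ifne and Ifng were not analysed here. The type III genes Ifnl2 and Ifnl3 are near-identical copies, so the split of reads between them is uncertain. Ifnl2 had 35 to 94 counts and Ifnl3 83 to 279, and neither passed the test in any comparison. Receptor genes were present throughout, with Ifnlr1, the specific chain of the type III receptor, at 378 to 602 counts.

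The 37 genes were compared between estrus and diestrus, between KO and WT, and for whether the stage difference depends on genotype. Differences are on the scale of log2(normalized count + 1), which understates those of low genes. P-values are from limma, two-sided and adjusted over all 15180 genes by the Benjamini-Hochberg method, and a gene is said to have risen or fallen when its adjusted p was under 0.05.

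In KO cells, 6 of the 37 genes were higher at estrus than at diestrus and 1 was lower, against 16.6% of all tested genes that passed (7.67% higher and 8.95% lower). The 7 of 37 is thus close to the share among all genes. Those that rose were the sensors Oas1a and Oas1g, the transcription factor Irf7, and the effectors Isg15, Bst2 and Mx2. The RNA sensor Ddx58 fell. The plot of normalized counts by group shows these 7 genes and Ifit1.

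**Figure D2:**
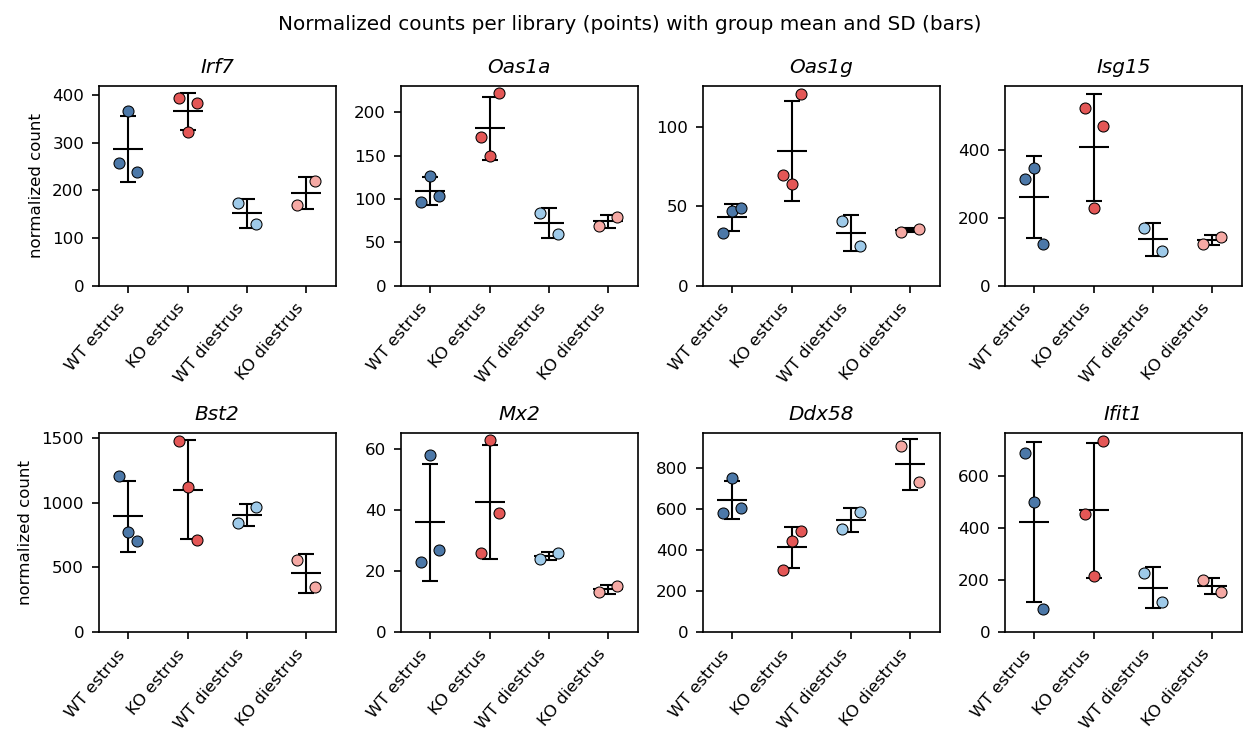
Normalized counts of 8 genes in the 4 groups, with 1 point per library and the group mean and SD as bars, on linear axes from 0. Oas1a and Irf7 are higher in all 6 estrus than in all 4 diestrus libraries, Ddx58 is highest in KO diestrus and lowest in KO estrus, and Ifit1 spans 87 to 688 counts within WT estrus.

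Oas1a (ENSMUSG00000052776, GRCm38 chromosome 5, 120896256 to 120907521) encodes an enzyme that makes 2-5A, the activator of RNase L, on binding double-stranded RNA. Its normalized counts were 172, 150 and 222 in KO estrus, 69 and 79 in KO diestrus, 97, 127 and 103 in WT estrus, and 84 and 60 in WT diestrus. All KO estrus libraries were the highest of the 10, and the other groups followed in the order WT estrus and then both diestrus groups, which overlapped. Oas1a rose from 74 ± 7.07 counts at KO diestrus (SD, n = 2) to 181 ± 36.9 at KO estrus (n = 3), a log2 difference of 1.27 ± 0.25 (SE, limma adjusted p = 0.00992). In WT the difference was 0.60 ± 0.25 (limma adjusted p = 1.0).

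Oas1g (ENSMUSG00000066861, chromosome 5, 120876142 to 120887613) is a neighbouring copy of Oas1a, so the assignment of reads between them is uncertain. Its counts were 70, 64 and 121 in KO estrus, 34 and 36 in KO diestrus, 33, 47 and 49 in WT estrus, and 41 and 25 in WT diestrus. KO estrus lay above all other libraries, and the remaining 3 groups overlapped. It rose in KO by 1.20 ± 0.35 (limma adjusted p = 0.0397). The other OAS family genes did not pass. Oasl1, a relative without enzyme activity, had 348, 139 and 253 counts in KO estrus and 73 and 68 in KO diestrus, but its WT estrus libraries ran from 55 to 258 (KO stage difference 1.70 ± 0.61, limma adjusted p = 0.0744). Oas3 lay the other way in KO, at 21 to 45 counts in estrus and 57 and 62 in diestrus (-1.04 ± 0.51, limma adjusted p = 0.177).

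Ddx58 (ENSMUSG00000040296, chromosome 4, 40203773 to 40239828) encodes RIG-I, the cytosolic sensor of viral RNA ends. Its counts were 301, 443 and 493 in KO estrus, 903 and 729 in KO diestrus, 577, 749 and 602 in WT estrus, and 502 and 586 in WT diestrus. Every KO estrus library was below every other library, while KO diestrus 1 was the highest of all 10. Ddx58 fell by 1.01 ± 0.22 from diestrus to estrus in KO (limma adjusted p = 0.0133), and in WT the difference was 0.23 ± 0.22 (limma adjusted p = 1.0). The related sensor Ifih1, which encodes MDA5 and is the next highest sensor by mean count, had 361, 310 and 448 counts in KO estrus, 316 and 401 in KO diestrus, 340, 513 and 386 in WT estrus, and 317 and 349 in WT diestrus. All 4 groups of Ifih1 overlapped. Over the 10 sensors the median KO stage difference was -0.00, with 5 above 0.

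Irf7 (ENSMUSG00000025498, chromosome 7, 141262706 to 141266481) encodes the factor that drives type I interferon genes after sensing. Its counts were 394, 322 and 383 in KO estrus, 170 and 219 in KO diestrus, 257, 366 and 239 in WT estrus, and 173 and 130 in WT diestrus. In each genotype every estrus library was above every diestrus library. It rose in KO by 0.92 ± 0.23 (limma adjusted p = 0.0215), and the WT difference was of the same size, 0.91 ± 0.23, with a limma adjusted p of 0.81.

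The other 3 transcription factors had smaller differences. Irf1, an early responder to interferon gamma, had 3509, 4038 and 7298 counts in KO estrus, 3749 and 3849 in KO diestrus, 3833, 5247 and 4338 in WT estrus, and 3687 and 4236 in WT diestrus. KO estrus 3 stood well above the rest and the groups otherwise overlapped. Irf9, the DNA-binding partner of STAT2, had 886, 1083 and 1071 counts in KO estrus, 697 and 819 in KO diestrus, 813, 1358 and 945 in WT estrus, and 834 and 749 in WT diestrus. Its estrus and diestrus libraries did not overlap in KO and overlapped in WT. Stat2, the type I signal transducer, had 906, 779 and 1023 counts in KO estrus, 625 and 779 in KO diestrus, 1007, 977 and 931 in WT estrus, and 713 and 719 in WT diestrus. All 4 factors were above 0 in the stage difference of each genotype, with a median of 0.39 in KO and 0.40 in WT. None of the 4 exceeded its own mean over the 10 libraries in any diestrus library. Of all genes, 51.2% to 52.7% did so in each of these libraries.

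Isg15 (ENSMUSG00000035692, chromosome 4, 156199424 to 156200818) encodes the ubiquitin-like protein that is attached to other proteins after interferon. The counts were 525, 229 and 473 in KO estrus, 124 and 145 in KO diestrus, 316, 349 and 124 in WT estrus, and 171 and 103 in WT diestrus. The KO groups did not overlap, whereas WT estrus 3 lay inside the diestrus range. Isg15 rose in KO by 1.51 ± 0.45 (limma adjusted p = 0.0395), and the WT difference was 0.85 ± 0.45 (limma adjusted p = 1.0).

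Bst2 (ENSMUSG00000046718, chromosome 8, 71534255 to 71537456) encodes tetherin, which holds budding virions at the cell surface. The counts were 1475, 1122 and 711 in KO estrus, 560 and 347 in KO diestrus, 1211, 774 and 704 in WT estrus, and 845 and 964 in WT diestrus. The KO diestrus libraries were the lowest of all 10, and the other groups overlapped. Bst2 rose from diestrus to estrus in KO by 1.26 ± 0.31 (limma adjusted p = 0.0215), and the WT difference was -0.05 ± 0.31 (limma adjusted p = 1.0).

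Mx2 (ENSMUSG00000023341, chromosome 16, 97535308 to 97560900), a dynamin-like antiviral GTPase, was scarce. Counts were 26, 63 and 39 in KO estrus, 13 and 15 in KO diestrus, 23, 58 and 27 in WT estrus, and 24 and 26 in WT diestrus. KO diestrus lay below every other library. Its rise of 1.46 ± 0.46 in KO (limma adjusted p = 0.0497) was at the threshold and passed under only 3 of 10 other settings of the fit that tested it.

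The 2 effectors of highest mean count over all libraries, B2m and Ifi27, did not pass. B2m had 12834, 13978 and 14587 counts in KO estrus, 9370 and 11654 in KO diestrus, 8760, 15825 and 16254 in WT estrus, and 10530 and 9332 in WT diestrus. Its KO groups did not overlap, but WT estrus 1 was the lowest of all libraries (stage difference 0.40 ± 0.25 in each genotype). Ifi27 had 1321, 1144 and 1710 counts in KO estrus, 911 and 1135 in KO diestrus, 1287, 1327 and 871 in WT estrus, and 1156 and 1034 in WT diestrus. Here too the KO groups were apart and the WT groups overlapped. Among the other effectors, the KO stage difference ran up to 1.26 ± 0.68 in Ifit3, an adaptor of the IFIT complex, and down to -0.37 ± 0.33 in Herc6, the ligase that attaches ISG15. With 1 library left out, the value of Ifit3 ran from 0.60 (without KO estrus 3) to 1.92 (without KO estrus 2), and that of Herc6 from -0.71 (without KO estrus 3) to -0.15 (without KO diestrus 2). Rsad2 (viperin), whose product makes an antiviral nucleotide, differed by 1.04 ± 0.45 (limma adjusted p = 0.129), and the GTPase Gbp2 by 0.58 ± 0.22 (limma adjusted p = 0.0886).

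The 7 calls in KO rest on few libraries. Under 11 other settings of the fit, the calls of Oas1a, Ddx58 and Irf7 held in 11. That of Bst2 held in 10, that of Isg15 in 8 and that of Oas1g in 7. Isg15, Oas1g and Mx2 were not called with the length trend removed. With the omission of KO diestrus 1 or of KO diestrus 2 none of the 37 passed, with the single library left assumed to vary like the other groups. Without KO estrus 1 there were 3 calls (Oas1a, Ddx58 and Mx2), and without KO estrus 3 there were 4 (Bst2, Ddx58, Oas1a and Irf7). Between estrus and diestrus in KO, 22 of the 37 genes did not overlap (17 higher and 5 lower at estrus), against 51% of all tested genes (25% higher and 26% lower).

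In WT cells, 0 of the 37 genes and 0% of all genes passed the limma test between estrus and diestrus. At an unadjusted p under 0.05 there were 4 of the 37, all higher at estrus (Irf7, Zbp1, Oas1a and Stat2), against 3.87% of all genes (2% higher). The direction was the same in most members: 31 of 37 were above 0, against 49.3% of all tested genes, with a median of 0.34 against -0.00. The medians were 0.40 for the transcription factors, 0.32 for the sensors and 0.24 for the effectors. Leaving out WT estrus 2 gave 27 of 37 above 0 and a median of 0.14, with 0.29, 0.13 and 0.06 for the 3 roles. In KO the count above 0 was 25 of 37 (49.3% of all genes), with a median of 0.40, which was 0.25 without KO estrus 3. The plot of stage differences shows both genotypes side by side.

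**Figure D3:**
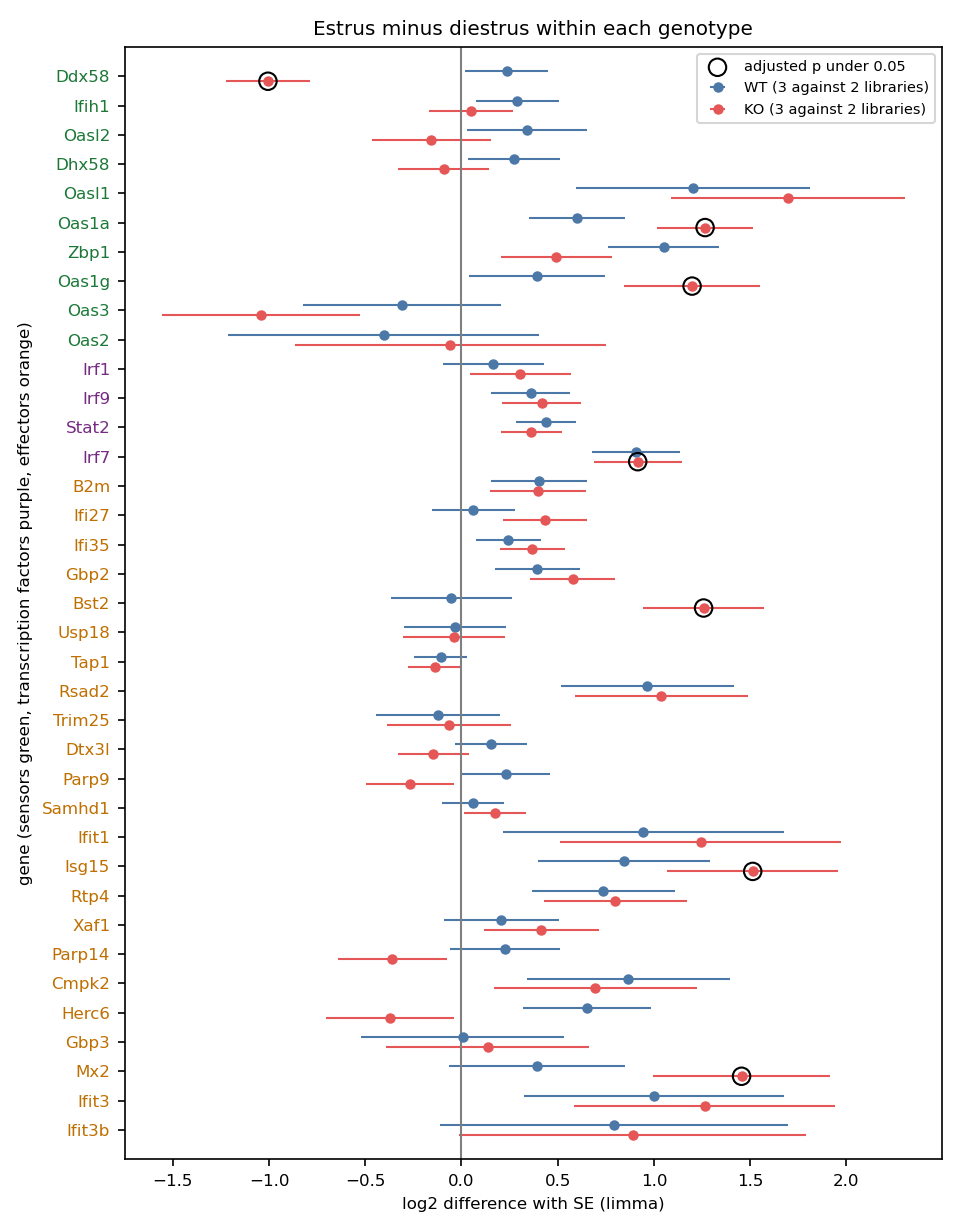
Estrus minus diestrus for the 37 genes in WT and KO cells, as the limma log2 difference with its SE. Rings mark an adjusted p under 0.05. Most points lie to the right of 0 in both genotypes, Irf7 has the same difference in each (0.91 and 0.92), and Ddx58 and Oas3 lie far to the left in KO.

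A contrast averaged over both genotypes, chosen after the values were seen, used all 6 estrus and 4 diestrus libraries. It called 5 of the 37 genes, all higher at estrus, against 7.92% of all genes (3.38% higher). They were Irf7 (0.91 ± 0.16, limma adjusted p = 0.0143), Oas1a (0.93 ± 0.18, limma adjusted p = 0.0188), Zbp1 (0.77 ± 0.20, limma adjusted p = 0.0421), Isg15 (1.18 ± 0.32, limma adjusted p = 0.0435) and Stat2 (0.40 ± 0.11, limma adjusted p = 0.0488). Zbp1, a sensor of left-handed nucleic acid, had 121, 98 and 117 counts in KO estrus, 70 and 89 in KO diestrus, 76, 91 and 117 in WT estrus, and 58 and 34 in WT diestrus. Oasl1 came next at 1.45 ± 0.43 (limma adjusted p = 0.0583).

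All 6 estrus libraries were above all 4 diestrus libraries in Irf7 and Oas1a, 2 of 37 genes, against 2.52% of all genes in that direction. The 5 calls also depended on the diestrus libraries: 0 passed without WT diestrus 2, KO diestrus 1 or KO diestrus 2. Without WT diestrus 1, KO estrus 1 or WT estrus 2 there were 2, Irf7 and Oas1a. Without KO estrus 3 there were 3 (Irf7, Oas1a and Bst2), and without WT estrus 3 there were 9.

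Between KO and WT at estrus, 0 of the 37 genes passed the limma test, against 4.2% of all genes. At an unadjusted p under 0.05 there were 5 (2 higher and 3 lower in KO), against 25.8% of all genes (11.8% higher and 14% lower). The median difference was 0.02, with 19 of 37 above 0, so the genes did not lie to one side. It ran from -0.13 without WT estrus 3 to 0.19 without WT estrus 2. The groups did not overlap in 4 of them (2 in each direction), against 26% of all genes (12.9% higher and 13.1% lower). Oas1a (0.72 ± 0.22, limma adjusted p = 0.0753) and Oas1g (0.93 ± 0.32, limma adjusted p = 0.0951) were higher in every KO than in every WT library. Ddx58 (-0.66 ± 0.19, limma adjusted p = 0.066) and Dtx3l (-0.42 ± 0.17, limma adjusted p = 0.143) were lower in every KO library.

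Dtx3l, a ubiquitin ligase that works with PARP9, had 572, 551 and 456 counts in KO estrus, 652 and 515 in KO diestrus, 581, 840 and 699 in WT estrus, and 616 and 639 in WT diestrus. Its partner Parp9 overlaps Dtx3l on the opposite strand of chromosome 16, where reads cannot be told apart without strand, and differed by -0.45 ± 0.20 at estrus (limma adjusted p = 0.187). With the omission of WT estrus 1 the count of calls was 1 (Parp9, limma adjusted p = 0.048), and with that of KO estrus 3 it was 1 (Ddx58, -0.80, limma adjusted p = 0.0424). The KO estrus libraries enter both this comparison and the stage comparison in KO, so the values of Oas1a, Oas1g and Ddx58 in them are not independent. Side by side, Ddx58 was at -0.66 against WT estrus and at -1.01 against KO diestrus, and Oas1a at 0.72 and 1.27.

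**Figure D4:**
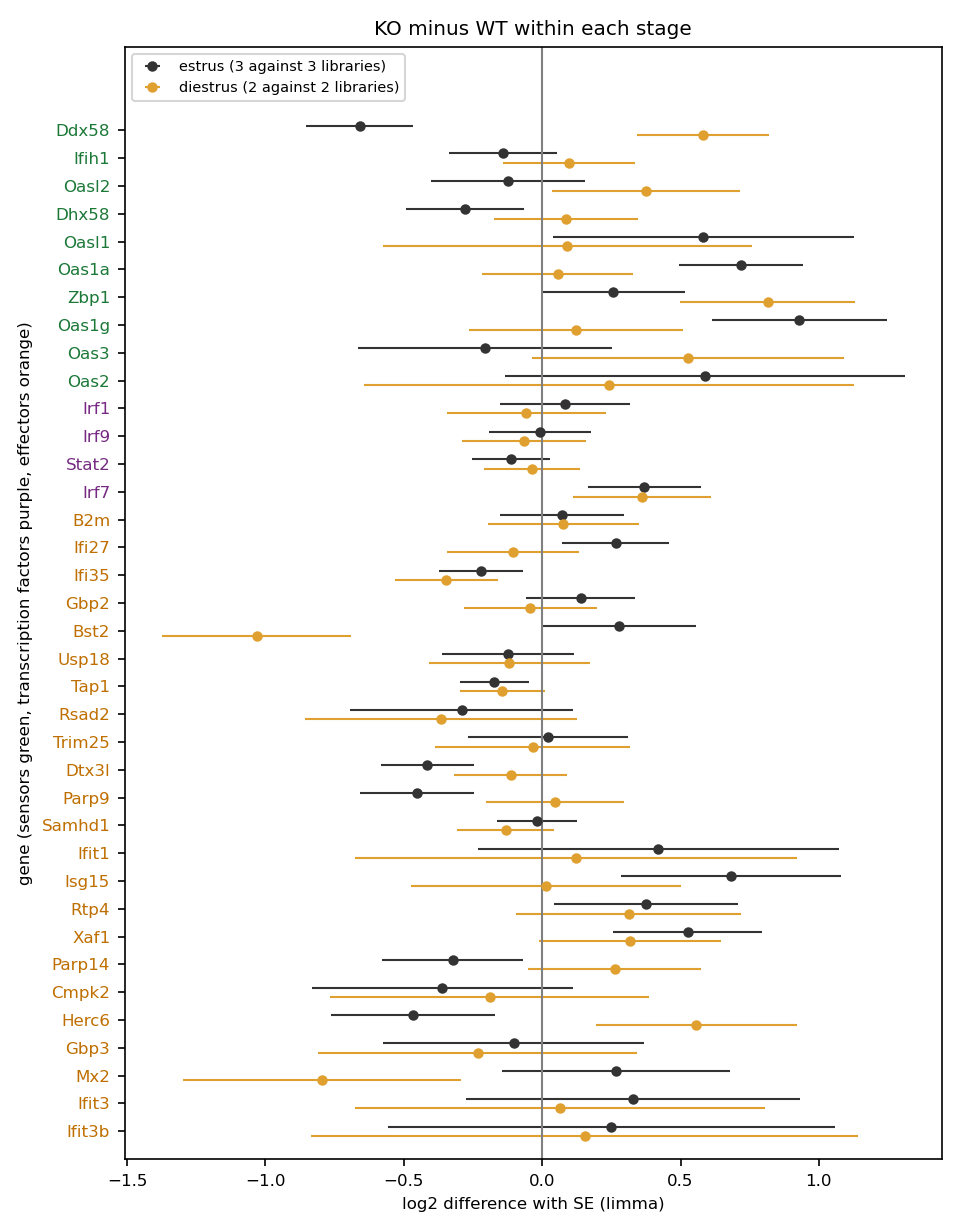
KO minus WT for the 37 genes at estrus and at diestrus, as the limma log2 difference with its SE. No gene reached an adjusted p under 0.05. Oas1a and Oas1g lie right of 0 at estrus, Bst2 lies left of 0 at diestrus, and Ddx58 lies on opposite sides at the 2 stages.

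At diestrus, 0 of the 37 genes passed the limma test between KO and WT, against 0.0395% of all genes, with 3 at an unadjusted p under 0.05 (5.92% of all genes). The median over the 37 was 0.06, and -0.09 without WT diestrus 2. Above 0 were all 10 sensors, 1 of the 4 transcription factors and 10 of the 23 effectors, against 49.4% of all genes. The sensors, with a median of 0.18, numbered 6 of 10 above 0 without WT diestrus 2 and 7 of 10 without KO diestrus 2. Bst2 (-1.03 ± 0.34, limma adjusted p = 0.595), Zbp1 (0.81 ± 0.32, limma adjusted p = 0.734) and Ddx58 (0.58 ± 0.24, limma adjusted p = 0.775) were the 3. The groups of 2 libraries did not overlap in 12 of 37 genes, against 43.1% of all genes. Averaged over both stages, 0 of 37 passed the limma test between genotypes (0.665% of all genes), with 4 at an unadjusted p under 0.05 (14.7% of all genes). The smallest adjusted p in that average was 0.268, for Zbp1 (0.54 ± 0.20), and Irf7 was at 0.37 ± 0.16 (limma adjusted p = 0.323).

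The test of whether the stage difference depends on genotype called 0 of the 37 genes and 0% of all genes with limma. At an unadjusted p under 0.05 there were 2, against 14.2% of all genes. These were Ddx58 (-1.24 ± 0.31, limma adjusted p = 0.237) and Bst2 (1.31 ± 0.44, limma adjusted p = 0.266). The calls made in KO and not in WT are therefore not shown to differ between genotypes.

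Much of the spread of these genes lay between libraries of the same group. The median within-group SD of the 37 genes was 0.37 on the log2 scale, against 0.26 for all tested genes, and 27 of the 37 were above the latter. Ifit3b (1.25), Oas2 (1.12), Ifit1 (1.10), Oasl1 (0.89) and Ifit3 (0.89) varied most, and Tap1, the peptide transporter subunit, varied least (0.10). Ifit1, an RNA cap-binding effector chosen here after its values were seen, had 688, 498 and 87 counts in WT estrus and 455, 215 and 734 in KO estrus, against 114 to 227 in the diestrus libraries. Rsad2, chosen in the same way, had 2082, 1076 and 549 counts in WT estrus and 349 to 569 in the diestrus libraries.

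This spread ran through most members at once, as the heat map by library shows. WT estrus 2 was above the genes' own means in 35 of 37 (52.2% of all genes). It was the highest WT estrus library in 25 of 37 (33.2% of all genes). WT estrus 3 was the lowest in 21 of 37 (32.8% of all genes), with a mean deviation of -0.26, below WT estrus 1 (0.18) and WT estrus 2 (0.46). KO estrus ran from -0.07 to 0.46, with KO estrus 3 the highest in 21 of 37 (35.1% of all genes). The 4 diestrus libraries ran from -0.40 to -0.13. Only 8 to 12 of the 37 genes were above their own mean in any of those 4, against 51.2% to 52.7% of all genes. By group mean, 13 of the 37 genes were highest in WT estrus and 19 in KO estrus, against 16.5% and 35.9% of all genes.

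**Figure D5:**
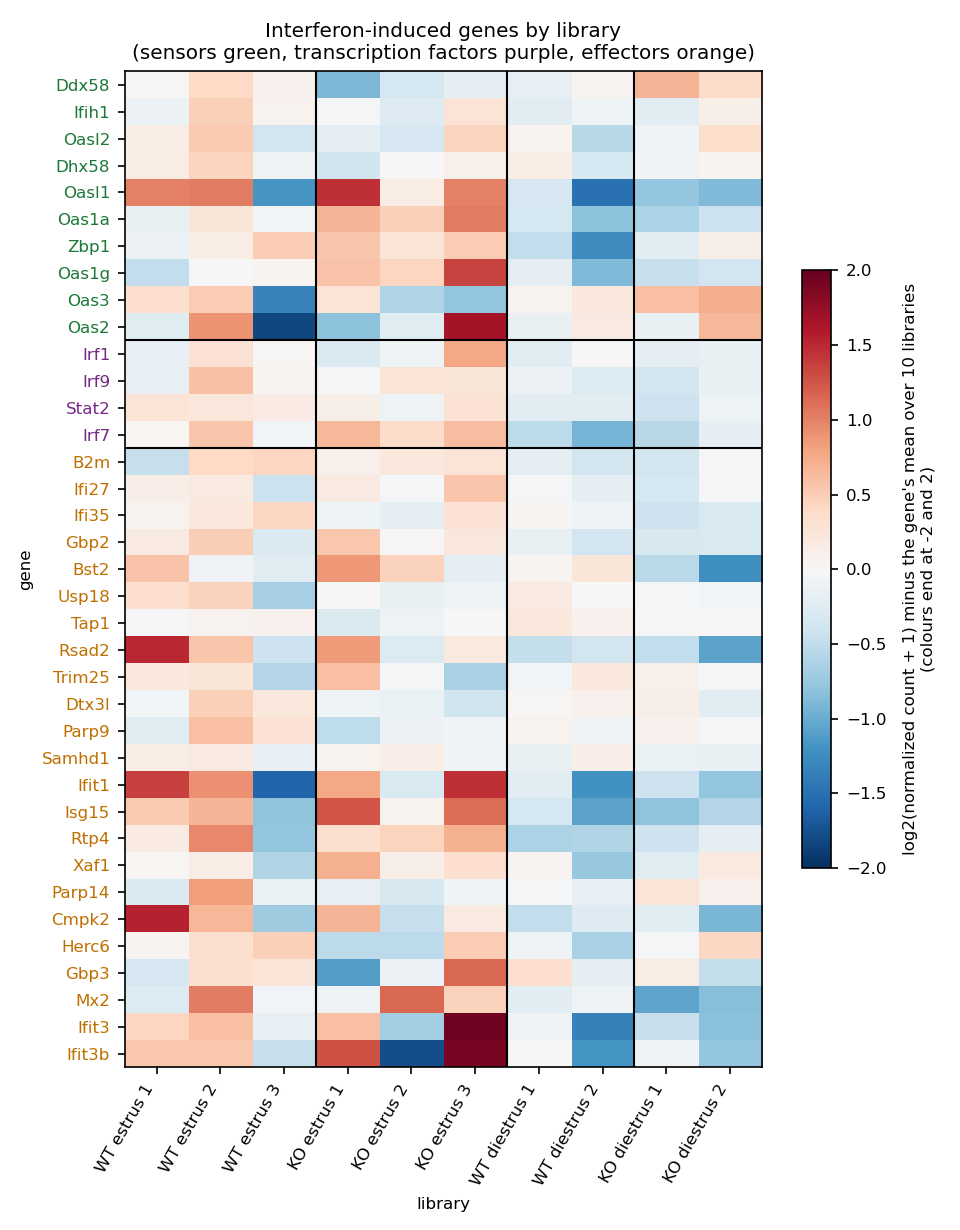
Heat map of the 37 genes in the 10 libraries. Colour gives log2(normalized count + 1) minus the gene's own mean, from -2 in blue to 2 in red. WT estrus 2 and KO estrus 3 are mostly red and the 4 diestrus libraries mostly blue, while Ddx58 and Oas3 are red in KO diestrus.

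Markers of other cells were measured beside these genes. The 10 macrophage markers summed to 748 to 1107 counts in KO estrus, 507 and 508 in KO diestrus, 364 to 770 in WT estrus, and 683 and 824 in WT diestrus. Of the 7 tested, Cd74, H2-Ab1 and C1qb were higher at estrus than at diestrus in KO (limma adjusted p from 0.0129 to 0.0342), against 7.67% of all genes. Between KO and WT at estrus 0 of the 7 passed limma, against 4.2% of all genes. At an unadjusted p under 0.05 there were 2 of the 7, close to the 25.8% of all genes. Of the 3 called between stages in KO, Cd74 and H2-Ab1 did not pass without KO estrus 1 or without KO estrus 2. C1qb was not tested without KO estrus 1, since its mean fell below 10, and it passed without KO estrus 2. C1qb had 44, 30 and 8 counts in KO estrus, 1 and 0 in KO diestrus, 8, 16 and 3 in WT estrus, and 12 and 3 in WT diestrus. Omitting a KO diestrus library left a single library in that group, which the fit assumed to vary like the other groups. A call, or its loss, in these omissions rests on that assumption. The differences of the 3 genes stayed above 0 there and lie within the ranges given next. Over the omissions run, the differences were 2.17 to 2.68 for Cd74, 1.71 to 2.08 for H2-Ab1 and 3.54 to 4.72 for C1qb. With no filter on low values, or with no trend in the spread, only C1qb of the 3 passed. Cd74 also did not pass with the length trend removed. Cd74 had 409, 436 and 215 counts in KO estrus and 60 and 71 in KO diestrus. WT estrus 3 had both the lowest macrophage sum (364) and the lowest Cd74 (32) of all libraries. The defining macrophage genes Adgre1 and Aif1 had at most 5 and 7 counts in any library, and the leukocyte gene Ptprc at most 6. Other genes of the macrophage list were present throughout, with Csf1r at 187 to 278 counts and Cd68 at 53 to 134. Csf1r had 187, 189 and 205 counts in KO estrus and 236 and 234 in KO diestrus, the opposite order to Cd74, and did not pass. The part of these cells in the values of the interferon-induced genes was not tested, and in sorted bulk RNA a change in the share of a cell type and a change in RNA per cell cannot be told apart.

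The T cell receptor gene Trbc2, the 1 lymphocyte marker high enough to be tested, ran from 137 to 183 counts at estrus in KO and from 57 to 90 at estrus in WT, and was higher in KO (limma adjusted p = 0.0276), a call not made without WT estrus 2, WT estrus 3, KO estrus 1 or either KO diestrus library, nor under 4 of the 11 other settings. The 8 lymphocyte markers sought summed to between 139 and 188 in the former and 64 and 92 in the latter, and its part in the values was not tested either. Of the 5 plasmacytoid dendritic cell genes sought, 4 had values here and Siglech had none. Ccr9 had 0 to 3 counts, Irf8 124 to 248, Tcf4 414 to 621 and Ly6d 27257 to 49573. Which cells the Ly6d counts came from was not tested. Ly6d was higher at estrus than at diestrus in KO (0.65 ± 0.21, limma adjusted p = 0.0493), which held under 5 of 11 other settings and in 1 of 10 omissions, that of KO estrus 2. Among the hormone-sensing luminal markers Gata3 was higher at estrus in KO (0.74 ± 0.16, limma adjusted p = 0.0137), a call lost only in the omission of KO diestrus 1 or KO diestrus 2.

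The wider pathway was described with 85 further genes, of which 74 were tested. In KO, 6 of the 74 rose from diestrus to estrus and 10 fell, against 7.67% and 8.95% of all genes. Of the 9 receptor and kinase genes 3 fell and 0 rose, and of the 10 genes of the induction pathway 3 fell and 0 rose. Of the 12 genes of MHC class I and the immunoproteasome 2 rose and 0 fell, of the 27 other interferon-induced genes 2 rose and 2 fell, of the 8 negative regulators 1 rose and 2 fell, and of the 6 other STAT and IRF factors 1 rose and 0 fell. The genes that fell include the receptor chain Ifnar1 (-0.95 ± 0.19, limma adjusted p = 0.00992), the kinases Jak1 (-0.63 ± 0.17), Jak2 (-0.89 ± 0.23) and Tbk1 (-0.93 ± 0.17), and the adaptors Ticam1 (-0.60 ± 0.18) and Traf3 (-0.69 ± 0.16). The rest were Pias1, Adar, Ifi204 and Znfx1.

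Ifnar1 had 281, 413 and 418 counts in KO estrus, 662 and 751 in KO diestrus, 570, 527 and 620 in WT estrus, and 630 and 614 in WT diestrus. KO estrus lay below all other libraries, as it did for Ddx58. Those that rose were the chemokine gene Cxcl10 (1.65 ± 0.48, limma adjusted p = 0.0373), the feedback inhibitor Socs3 (0.93 ± 0.25), Batf2 (0.89 ± 0.27), H2-T23 (0.71 ± 0.20), the proteasome activator subunit Psme2 (0.58 ± 0.17) and the membrane restriction factor Ifitm2 (0.50 ± 0.15). Cxcl10 had 1670, 961 and 862 counts in KO estrus, 401 and 314 in KO diestrus, 781, 1240 and 283 in WT estrus, and 433 and 534 in WT diestrus. WT estrus 3 was the lowest of the 10 for Cxcl10. In WT, 0 of the 74 and 0% of all genes passed the limma test between stages. Of the 74, 7 had an unadjusted p under 0.05, against 3.87% of all genes, and 53 were above 0, with a median of 0.15. The share of all genes above 0 in this comparison is given earlier, with the stage differences in WT. Of the 16 calls in KO, 0 were made without KO diestrus 1 or KO diestrus 2, 6 without KO estrus 1, 9 without KO estrus 3, and 9 when a single WT diestrus library was omitted. With the length trend removed 5 of the 16 were made (Ifi204, Ifnar1, Jak2, Tbk1 and Ticam1), so that none of the 6 rises passed, and there were 5 with no filter on low values, 7 with no trend in the spread and 8 in a fit of the compared groups only.

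Between stages averaged over both genotypes, 1 of the 74 rose (Phf11d, 0.61 ± 0.13, limma adjusted p = 0.022) and 5 fell (Ifnar1, Pias1, Tbk1, Ticam1 and Traf3), against 7.92% of all genes. Phf11d had 332, 331 and 310 counts in KO estrus, 248 and 291 in KO diestrus, 316, 362 and 394 in WT estrus, and 207 and 162 in WT diestrus, so every estrus library was above every diestrus library. Of these 6 calls, 0 were made without WT diestrus 2, KO diestrus 1 or KO diestrus 2, 1 (Phf11d) without WT diestrus 1, and 3 without WT estrus 2 or WT estrus 3. With no filter on low values 2 of the 6 were made, and 3 with no trend in the spread or with the length trend removed.

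Between KO and WT at estrus, 2 of the 74 were higher in KO and 2 were lower, against 4.2% of all genes. Ifitm3, which blocks viral entry at endosomes, had 5151, 4335 and 6295 counts in KO estrus, 5014 and 5418 in KO diestrus, 2966, 3575 and 2996 in WT estrus, and 3114 and 2169 in WT diestrus. It was higher in every KO than in every WT library, by 0.72 ± 0.18 at estrus (limma adjusted p = 0.0453) and by 0.86 ± 0.14 averaged over both stages (limma adjusted p = 0.0299). Ifitm2 was higher in KO by 0.53 ± 0.13 at estrus. The genes lower in KO were Jak2 (-0.95 ± 0.20, limma adjusted p = 0.0337) and Tbk1 (-0.77 ± 0.16, limma adjusted p = 0.031). At diestrus 0 of the 74 passed the limma test (5 at an unadjusted p under 0.05, against 5.92% of all genes), and the interaction called 0 of the 74 with limma (8 at an unadjusted p under 0.05, against 14.2% of all genes). Of the 4 calls at estrus, 0 were made with WT estrus 2, WT estrus 3, KO estrus 1, or a diestrus library of either genotype, left out. Omitting KO estrus 3 kept 2 of the 4 (Jak2 and Tbk1), and omitting WT estrus 1 kept 3, without Ifitm3. None of the 4 was made with no filter on low values, with no trend or in a fit of the compared groups only, and 2 (Jak2 and Tbk1) were made with library weights or with the length trend removed. The averaged call of Ifitm3 was not made without WT estrus 3, WT diestrus 2 or either KO diestrus library, nor with no filter or no trend.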

How the data were processed

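Total RNA of 50000 sorted cells per library (RIN 8, per the labels' protocols) was sequenced after TruSeq library preparation. Per the submitters' processing notes, STAR, HTSeq and DESeq2 were used with mm10. Versions, strandedness and annotation are not given in the sources used here. Each deposited value is a score that the authors made: normalized read counts rounded to whole numbers, not raw and not scaled by length. Raw read numbers were not recovered, so no test on counts was run. Symbols, positions and exon lengths (union of exons) came from GENCODE M21, which gave 26249 of 26312 genes a symbol. Library names and the genotype label set the groups, since titles of KO libraries also carry the word WT.

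A linear model with 1 mean for each group was fitted to log2(value + 1) of the 10 libraries in limma 3.58.1 (R 4.3.3), letting the prior spread follow the level (trend). Genes with a mean of at least 10 were tested, and p-values were adjusted over all 15180. The fit was tested on simulated data. Groups of 2 libraries borrow the spread of the others. The members and lists were chosen with earlier results of these data known, so the list as a whole gets no test and its counts stand beside those of all genes. Every library's value is given for members called in any comparison, for members without overlap between KO and WT at estrus, and for the 2 of highest mean per role. The named genes of the further pathway lists are those called in any comparison and, of lists without a call, at most 2 of highest mean. Other genes, marker genes included, were chosen after their values were seen. In the further lists, 2 genes are not reported here and stay out of the counts.

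The alternatives were pseudocounts of 0.5 and 5, no filter, a mean of at least 50, equal totals, quantile normalization, no trend, library weights, the replicate number as a replicate block, a fit of only the compared groups, and omission of each library in turn. The comparison of stages averaged over genotypes and the removal of each library's trend on exon length were chosen after seeing the data. Python 3.11.15 with matplotlib 3.10.9 drew the figures.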

Additional observations from a re-analysis of the deposited data

Results flagged for a closer look

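Ddx58 lay on opposite sides in the comparison of KO with WT: every KO library was below every WT library at estrus and above every WT library at diestrus. The interaction was -1.24 on the log2 scale, and it did not pass limma's test over all genes (adjusted p = 0.237). Over the other settings and omissions it ran from -1.39 to -1.03, with adjusted p from 0.0806 to 0.632. Diestrus rests on 2 libraries per genotype. Groups of 2 or 3 libraries were not tested for outlying libraries.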

How the results depend on the processing

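Of the 37 genes, the 7 called between stages in KO were 4 with the length trend removed, 4 without a filter on low values and 4 without the trend, and 0 to 8 with a library left out. The 5 called between stages averaged over genotypes were 2 without a filter, 3 with equal totals, 2 without a trend, 12 with library weights and 3 with the length trend removed, and 0 to 9 with a library left out. Between KO and WT at estrus the count of 0 stayed 0 under 11 other settings and ran from 0 to 1 with a library left out. The counts of 0 between KO and WT at diestrus and averaged over stages, between stages in WT and for the interaction were 0 under each alternative run. The median interaction, 0.06, was -0.23 without WT estrus 3 and ran up to 0.20 in the other omissions. The cause of these shifts was not tested. In the omissions, the smaller number of libraries and the library left out cannot be told apart. The stage difference of Bst2 in WT, -0.05, changed sign with the replicate block (0.17) and without WT estrus 2 (0.03), WT estrus 3 (0.10) or WT diestrus 2 (0.04), and ran from -0.29 to 0.10 over all omissions. None of the other differences of single named genes recomputed under the alternatives changed sign. The median over the 37 genes between KO and WT at estrus, 0.02, did, with a minimum mean of 50 (-0.01), library weights (-0.04) and the omission of WT estrus 3 (-0.13) or KO estrus 3 (-0.08). Fitting only the compared groups gives no other value for the interaction and the averages, which use all libraries. As for pairing, the deviations of libraries with the same number correlated at 0.187, 0.0835 and 0.0309 at estrus and at -0.0363 at diestrus. Those with different numbers ran from -0.147 to 0.0786 at estrus. With 2 libraries per group, deviations from the group mean mirror each other, so the diestrus values all have the same size and cannot decide this. Not every library correlated best with its own number at estrus, and whether the numbers pair the libraries is not settled. With the replicate block the count of calls between stages in KO was 9 and averaged over genotypes 6. Low counts limit Mx2, Oas2, Ifit3 and Ifit3b most, and the smallest groups hold 2 libraries.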
